A study of Drosophila melanogaster with 2 samples.

Results

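The genes described here are 49 homeobox genes of neural and body patterning, chosen by name, of 13945 protein-coding genes on the main chromosome arms of Drosophila melanogaster. Chromatin immunoprecipitation with sequencing (ChIP-seq) had been run on whole embryos aged 0 to 24 h. The embryos were transgenic, with an insertion at klu, and expressed Klumpfuss, a zinc finger transcription factor, as a fusion with a green fluorescent protein (klu-eGFP) against which the antibody was directed. The study has 1 group, with 2 replicates labelled as biological, and a control library was not analysed here. Tissues and stages were mixed within each collection, so a peak cannot be tied to a cell type, and peak lists hold no expression values against which the labelled stage could be checked. All 49 symbols were found in the annotation. A peak summit was linked to a gene by 3 rules, namely within 1 kb of an annotated transcription start, inside the gene, or nearest to one of its starts at any distance. By any of the 3 rules, 18 of the 3087 pooled summits on the main arms belonged to these genes. All positions are in the dm6 assembly and count from 1. The lists hold no read counts, so depth is unknown, and the 95% exact binomial intervals given with shares cover counting error only.

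Homeobox genes encode transcription factors that bind DNA through a homeodomain. In the fly embryo they act in layers: maternal and zygotic factors set the axes, pair-rule and segment polarity genes divide the trunk, columnar genes divide the neuroectoderm from ventral to dorsal, and others fix the identity of neurons, muscles, sense organs, eyes and appendages. Many of them are long, are controlled by distant enhancers and are expressed in few cells at a time. Klumpfuss belongs to the EGR/WT1 family, and is known for its roles in neural stem cells and in sensory organ precursors.

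Klu-eGFP peaks lay near the starts of few of these genes, and the peaks that belonged to them were mostly in introns and in intergenic sequence. Within 1 kb of a start, 3 of the 49 genes had a summit, a share of 6.12% (interval 1.28 to 16.9%), against 16.1% of all protein-coding genes. The 3 were bcd, so and ro. Inside the gene, 6 of 49 held a summit, 12.2% (4.63 to 24.8%) against 8.83% of all protein-coding genes. As the nearest start, 9 of 49 had a summit, 18.4% (8.76 to 32.0%) against 16.0%. The share at starts was below the background and the other shares were above it, but each of the 3 intervals includes its background share. No test was run, since the genes were chosen with earlier results of these data known.

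The sequences around 6 of the 18 summits are shown because they cover the range of what lay under these peaks, from introns and intergenic DNA rich in A and T to a coding exon rich in G and C. Each runs 5′ to 3′ on the plus strand of dm6 over 101 bases centred on the summit. In the first 4 capitals mark the longest unbroken run of A and T. In the fifth no letter is marked. In the last, at ro, capitals mark the one EGR-type match found within 50 bp of any of the 18 summits. The windows are zfh1 at 3R:30781756-30781856, hth at 3R:10597677-10597777, ems at 3R:13915756-13915856, the intergenic bcd summit at 3R:6760876-6760976, the bcd coding exon at 3R:6757656-6757756 and ro at 3R:26881434-26881534.
zfh1 intron: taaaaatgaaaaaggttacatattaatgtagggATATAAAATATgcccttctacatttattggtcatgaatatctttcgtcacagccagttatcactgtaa
hth intron: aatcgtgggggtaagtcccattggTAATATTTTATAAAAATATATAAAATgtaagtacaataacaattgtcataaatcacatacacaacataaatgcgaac
ems intergenic: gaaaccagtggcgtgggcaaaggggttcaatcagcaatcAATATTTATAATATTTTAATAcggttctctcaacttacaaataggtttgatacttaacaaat
bcd intergenic: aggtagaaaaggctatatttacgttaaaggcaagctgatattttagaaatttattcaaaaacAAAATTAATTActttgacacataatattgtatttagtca
bcd coding exon: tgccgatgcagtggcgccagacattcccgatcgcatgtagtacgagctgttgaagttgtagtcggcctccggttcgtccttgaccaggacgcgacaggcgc
ro promoter: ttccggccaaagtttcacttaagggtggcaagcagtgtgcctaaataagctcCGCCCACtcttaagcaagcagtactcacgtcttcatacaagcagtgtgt

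Among the axis genes, bcd, the maternal determinant of the anterior end (FBgn0000166), carried 3 separate summits within 3.22 kb. The strongest lay in the promoter at 3R:6759634, 168 bp upstream of the start, with a pooled signal of 123 and signals of 57.1 in replicate 1 and 70.4 in replicate 2. Signal here is the value per peak as the authors deposited it, and the replicate values are those of the overlapping candidate peak in the ranked list of each replicate. It was in the thresholded list of replicate 2 and not in that of replicate 1. The second lay in a coding exon at 3R:6757706 with a pooled signal of 83.3, 48.6 in replicate 1 and 31.1 in replicate 2, and was in the list of replicate 1 alone. The third lay upstream at 3R:6760926, 1460 bp from the start, with 73.5 pooled, 25.6 in replicate 1 and 40.2 in replicate 2, and was in neither replicate's list. The gene thus had 3 pooled peaks and no peak that both replicates placed in their own lists. The posterior determinant cad and the dorsal patterning gene zen had no pooled summit by any rule.

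The 7 genes grouped here under segmentation had no pooled summit by any rule: the pair-rule genes eve, ftz and prd, the segment polarity genes en, inv and gsb, and gsb-n. Nor did the 3 columnar genes vnd, ind and Dr, which subdivide the neuroectoderm. To show what lay at such starts, the strongest candidate peak within 1 kb was taken from the ranked list that holds every pooled peak, which has 133008 candidates on the main arms. In that list the pair-rule genes had candidate signals of 29.3 (eve), 36.3 (ftz) and 46.4 (prd). The segment polarity genes had 47.2 (en), 34.6 (inv) and 44.7 (gsb), and gsb-n had 26.1. The columnar genes had 40.3 (vnd), 24.7 (ind) and 17.9 (Dr), and the axis genes cad and zen 48.9 and 29.5. The median over all protein-coding genes was 32.7, and these candidates lay on either side of it.

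Among the 8 head and eye genes, ems, oc, so and ro had a pooled summit by some rule. The share of all genes with a summit by any rule was not counted, so this only describes. The head gap gene ems (FBgn0000576) had 2 intergenic summits 910 bp apart and 13953 and 13043 bp downstream of its start. The first, at 3R:13915806, had a pooled signal of 132, with 57.8 in replicate 1 and 66.7 in replicate 2. The second, at 3R:13914896, had 114.5 pooled, 46.5 in replicate 1 and 61.3 in replicate 2. Both were in the thresholded lists of both replicates, and no other gene of the set had more than 1 such peak. The head gap gene oc (FBgn0004102), also known as orthodenticle, had an intergenic summit at X:8627323, 15853 bp downstream of its start, with 100.7 pooled, 45.5 in replicate 1 and 47.3 in replicate 2. That peak was in the list of replicate 1 and not in that of replicate 2. The replicate values were nearly equal, but over all pooled peaks the median was 46.6 in replicate 1 and 66.3 in replicate 2.

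Of the eye genes, so (FBgn0003460), a Six-family factor of the retinal determination network, had a summit at 2R:7418803, 547 bp upstream of its start. Its signal was 85.0 pooled, 36.7 in replicate 1 and 58.1 in replicate 2, and the list of replicate 2 held it. The strongest replicate 1 candidate within 1 kb of the so start was higher, at 57.9. The summit near ro (FBgn0003267), which patterns photoreceptors, was the weakest of the 18, with 68.1 pooled, 24.1 in replicate 1 and 50.5 in replicate 2. It lay at 3R:26881484 between ro and T48, 313 bp upstream of ro and 250 bp from the start of T48, a gene of gastrulation, so it cannot be assigned to either gene by position. The eye genes ey, toy and Optix and the visual system gene Vsx1 had no pooled summit by any rule, with candidates of 42.3 at Optix and 34.5 at Vsx1. Both Pax6 genes, ey and toy, lie on chromosome 4, where the whole pooled list held 1 peak, and neither had a candidate within 1 kb of a start. Chromosome 4 carried 4 of the 49 genes, the others being zfh2 and onecut.

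Among the LIM homeobox genes, which combine to specify motor neurons and interneurons, tup (FBgn0003896), the fly Islet gene, had an intergenic summit at 2L:18890298, 9037 bp upstream of its start. Its signal was 90.6 pooled, 35.0 in replicate 1 and 62.0 in replicate 2, and the list of replicate 2 held it. Lim1, Lim3, ap and Awh had none. Their candidates at starts had signals of 26.3 (Lim1), 39.8 (Lim3) and 24.6 (Awh), and ap had no candidate in this ranked list.

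The highest signals of the set belonged to genes of neuron identity. The peak in otp (FBgn0015524), the orthopedia gene of neuroendocrine and brain neurons, was the strongest, with 289 pooled, 142 in replicate 1 and 140 in replicate 2. It lay in a coding exon at 2R:20884599, 12985 bp downstream of the nearest otp start, and the nearest protein-coding start was that of Cib2, 4669 bp away. The peak in zfh1 (FBgn0004606), a zinc finger homeobox gene of motor neurons and mesoderm, had 216 pooled, 80.2 in replicate 1 and 132 in replicate 2. It lay in an intron at 3R:30781806, 1452 bp upstream of the nearer zfh1 start and also inside the antisense gene asRNA:CR45189. Both peaks were in the lists of both replicates, and they ranked 302 and 517 among the 3087 pooled peaks. They were also narrow, 146 bp for otp and 136 bp for zfh1, where the other 16 were each 400 bp wide. Of all pooled peaks, 6.67% were under 200 bp wide and 85.1% were 400 bp wide, against 11.1% and 88.9% of the 18.

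The third gene of this group with a summit was OdsH (FBgn0026058), known for its part in hybrid male sterility. Its intronic summit at X:17802805, 11795 bp from the start, had 78.2 pooled, 33.6 in replicate 1 and 43.5 in replicate 2, and neither replicate's own list held it. Among the other neuron identity genes, exex (the HB9 gene of motor neurons), unpg, Ptx1, zfh2, unc-4, scro and onecut had no pooled summit by any rule. Ptx1 and unc-4 had the highest candidates at starts among these, 58.1 and 55.6, at scores of 496 and 400. The pooled list held peaks of a score of 830 or more. The candidates at exex, unpg and zfh2 had signals of 32.9, 28.1 and 13.4, and scro and onecut had none. In the shorter conservative list scro did have a summit, in an intron at 3L:24754322, 30160 bp from its start, with a signal of 86.6, and the list of replicate 1 held it with 43.9.

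The TALE gene hth (FBgn0001235), whose product carries Extradenticle into the nucleus, had the most summits, 4 along 77.0 kb of its introns. The gene is 132008 bp long, the longest of the set. The strongest summit, at 3R:10597727 and 16549 bp from a start, had 153 pooled, 66.4 in replicate 1 and 99.0 in replicate 2, and was in both replicates' lists. The summits at 3R:10564431 and 3R:10560739 had pooled signals of 89.0 and 78.0, and the list of replicate 2 held each. The one at 3R:10520678, 93598 bp from the nearest hth start, had 75.9 pooled and was in neither replicate's list. For that summit the nearest protein-coding start was that of Cyp12e1, 85889 bp away. Signal was highest at the summit nearest to a start and lowest at the farthest. The partner gene of hth, exd, had no summit and no candidate at its starts.

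Of the genes of appendages and sense organs, ct (FBgn0004198), which gives external sense organs their identity, had 2 intronic summits 33374 bp apart. The one at X:7651792, 19570 bp from a start, had 98.0 pooled, 58.6 in replicate 1 and 33.7 in replicate 2, and the list of replicate 1 held it. The one at X:7618418, 9270 bp from a start, had 74.0 pooled, 24.4 in replicate 1 and 44.6 in replicate 2, and neither list held it. The replicates thus differed in which of both summits was the stronger. The limb gene Dll, the appendage genes al and C15, and the Bar genes B-H1 and B-H2 had none. Their candidates at starts had signals of 51.55 (Dll), 49.2 (al), 39.9 (C15), 45.45 (B-H1) and 27.0 (B-H2). The muscle identity genes slou, lbe and lbl, the visceral mesoderm gene H2.0 and the muscle and gonad gene Six4 had no pooled summit either. Candidates had signals of 30.2 at slou, 36.1 at lbe, 40.1 at lbl and 15.3 at Six4. H2.0 had a candidate of 73.8 within 1 kb of its start, above the 68.1 at ro, but at a score of 68.

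**Figure D1:**
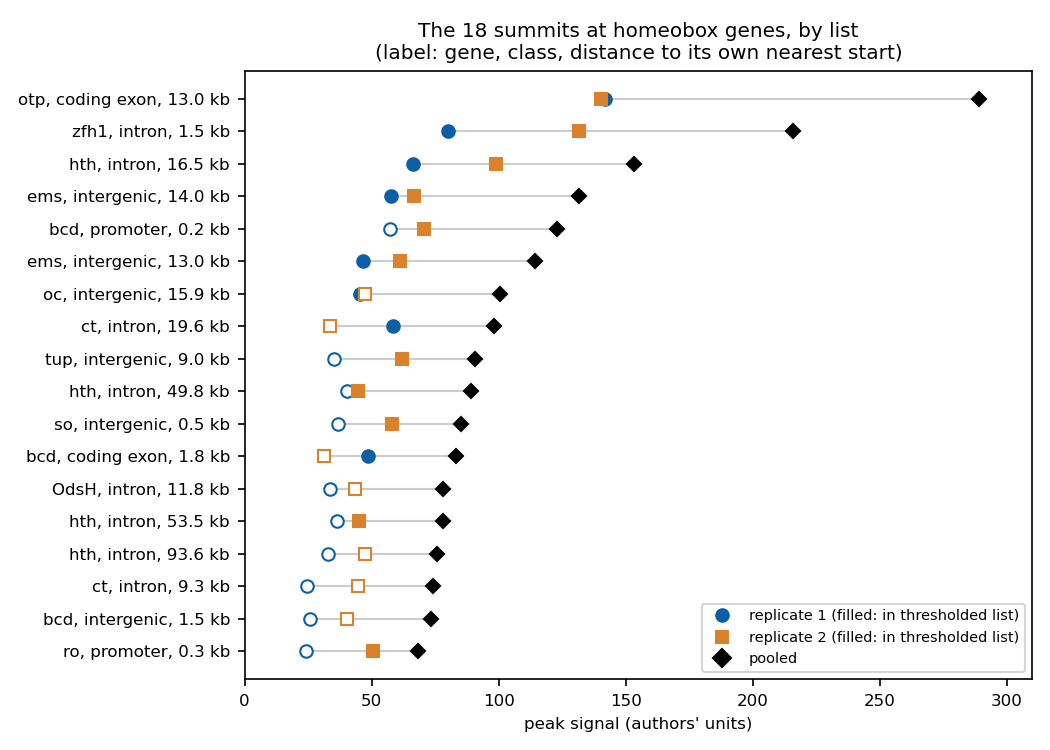
Signal of the 18 pooled summits at homeobox genes, one per row, in the authors' units on the x axis, with circles for replicate 1, squares for replicate 2 and diamonds for the pooled list. Filled symbols mark peaks in the thresholded list of that replicate. The otp and zfh1 peaks stand above the others at 289 and 216, and 5 rows are filled in both replicates.

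Altogether 11 of the 49 genes had a pooled summit by some rule and 38 had none. The share of all protein-coding genes with a summit by any rule was not counted. Counts by any rule, here and in the role groups above, thus have no background beside them and only describe. The 18 summits had signals between 68.1 and 289 and a median signal of 89.8, against a median of 106 over all pooled peaks, and 6 of the 18 (33.3%) lay above that median. Both replicates' thresholded lists held 5 of the 18 (27.8%, interval 9.69 to 53.5%), against 41.3% of all pooled peaks. Replicate 1 alone held 3 (16.7%, against 6.61%), replicate 2 alone held 6 (33.3%, against 30.9%), and neither held 4 (22.2%, against 21.2%). The conservative list held 15 of the 18 (83.3%, interval 58.6 to 96.4%), against 73.0%. A candidate in the ranked list of each replicate was found under all 18, against 96.8% of all pooled peaks. In these candidates replicate 2 was higher at 15 of the 18, against 77.5% of all pooled peaks with both values. The share held by both replicates was lower than in the whole list, though its interval includes 41.3%. The whole list was richer in promoter summits, 51.3% against 11.1% of the 18. Outside promoters, as defined below, both replicates' lists held 31.2% of 16 summits at these genes, against 35.5% of all, which its interval includes. The median signal there was 89.8 against 95.3. Both gaps were thus smaller outside promoters, though of the same sign, and the part of promoter content in them was not tested.

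The 18 summits lay in promoters less often by count than the whole list, and no test of this was run. Promoters, taken as 500 bp either side of any annotated start, held 2 of the 18 summits (11.1%), against 51.3% of all pooled summits. Introns held 8 (44.4%, against 32.8%), intergenic sequence 6 (33.3%, against 12.7%) and coding exons 2 (11.1%, against 1.49%). Among the 16 summits outside promoters, introns held 50%, below the 67.2% of all pooled summits outside promoters. Intergenic sequence held 37.5% of the 16 against 26.1%, and coding exons 12.5% against 3.06%. The median distance to the nearest protein-coding start was 10500 bp at these genes and 545 bp over the whole list. More than 10 kb from any such start lay 9 of the 18 (50%), against 10.1% of all pooled summits. The 9 include all 4 summits of the long gene hth and both ems summits, 910 bp apart, so few genes carry this count. Among summits outside promoters the gap was smaller but of the same sign, with 9 of 16 (56.2%) at these genes and 20.1% of all. The genes described here had a median length of 11.9 kb against 2.17 kb for all protein-coding genes. The part of length in the result was not tested, and the spacing of genes was not measured. The 16 summits at 50 other homeobox genes had similar positions, with 12.5% in promoters, 50% in introns, 31.2% in intergenic sequence and 43.8% more than 10 kb from a start.

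**Figure D2:**
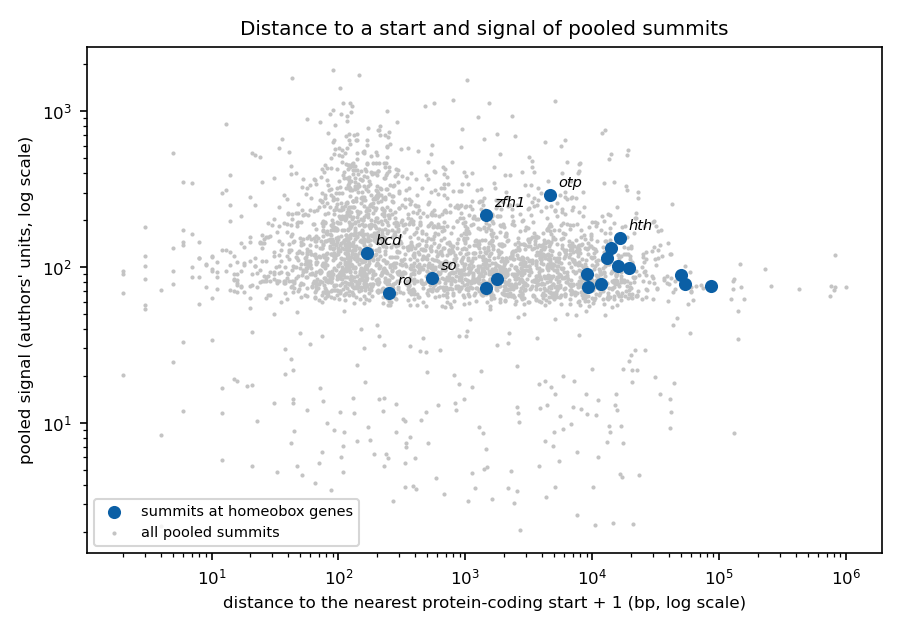
Distance from each pooled summit to the nearest protein-coding start (x axis, bp plus 1, log scale) against its pooled signal (y axis, authors' units, log scale), with blue points for the 18 summits at homeobox genes and grey points for all 3087. The blue points have a median distance of 10500 bp and the grey points one of 545 bp.

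Among long genes the share inside the gene was below the background, which the interval includes. Of the 27 genes of the set that were 10 kb or longer, 5 held a summit (18.5%, interval 6.3 to 38.1%), against 33.5% of all protein-coding genes of that length. Per 100 kb of gene, the set held 1.17 summits, or 0.833 without hth, against 1.98 over all protein-coding genes. That background covers genes of every length, with a median of 2.17 kb against 11.9 kb in the set, so it is not matched by length. Among genes with a single annotated start the share was again below the background, within its interval. Of the 31 genes of the set with 1 annotated start, 2 had a summit within 1 kb (6.45%, interval 0.791 to 21.4%), against 12.2% of all such genes.

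The candidates at starts were near the background in the middle of their range and lower in count at the top. The median of the strongest candidate within 1 kb was 34.6 over the 49 genes and 32.7 over all protein-coding genes, counting a gene with no candidate as 0. No candidate was listed at 7 of the 49 (14.3%), namely ey, toy, ap, scro, onecut, exd and ct, against 16.9% of all genes. Above the 75th percentile of all genes, a signal of 50.5, stood 7 of the 49 (14.3%, interval 5.94 to 27.2%, against 25%): bcd, so, H2.0, ro, Ptx1, unc-4 and Dll. Above the 90th percentile, 113, stood 1, bcd (2.04%, interval 0.0517 to 10.9%, against 10%). Above the 95th, 194, stood 0 of 49 (interval 0 to 7.25%), against 5.01%. Each of these 3 intervals includes its background share.

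**Figure D3:**
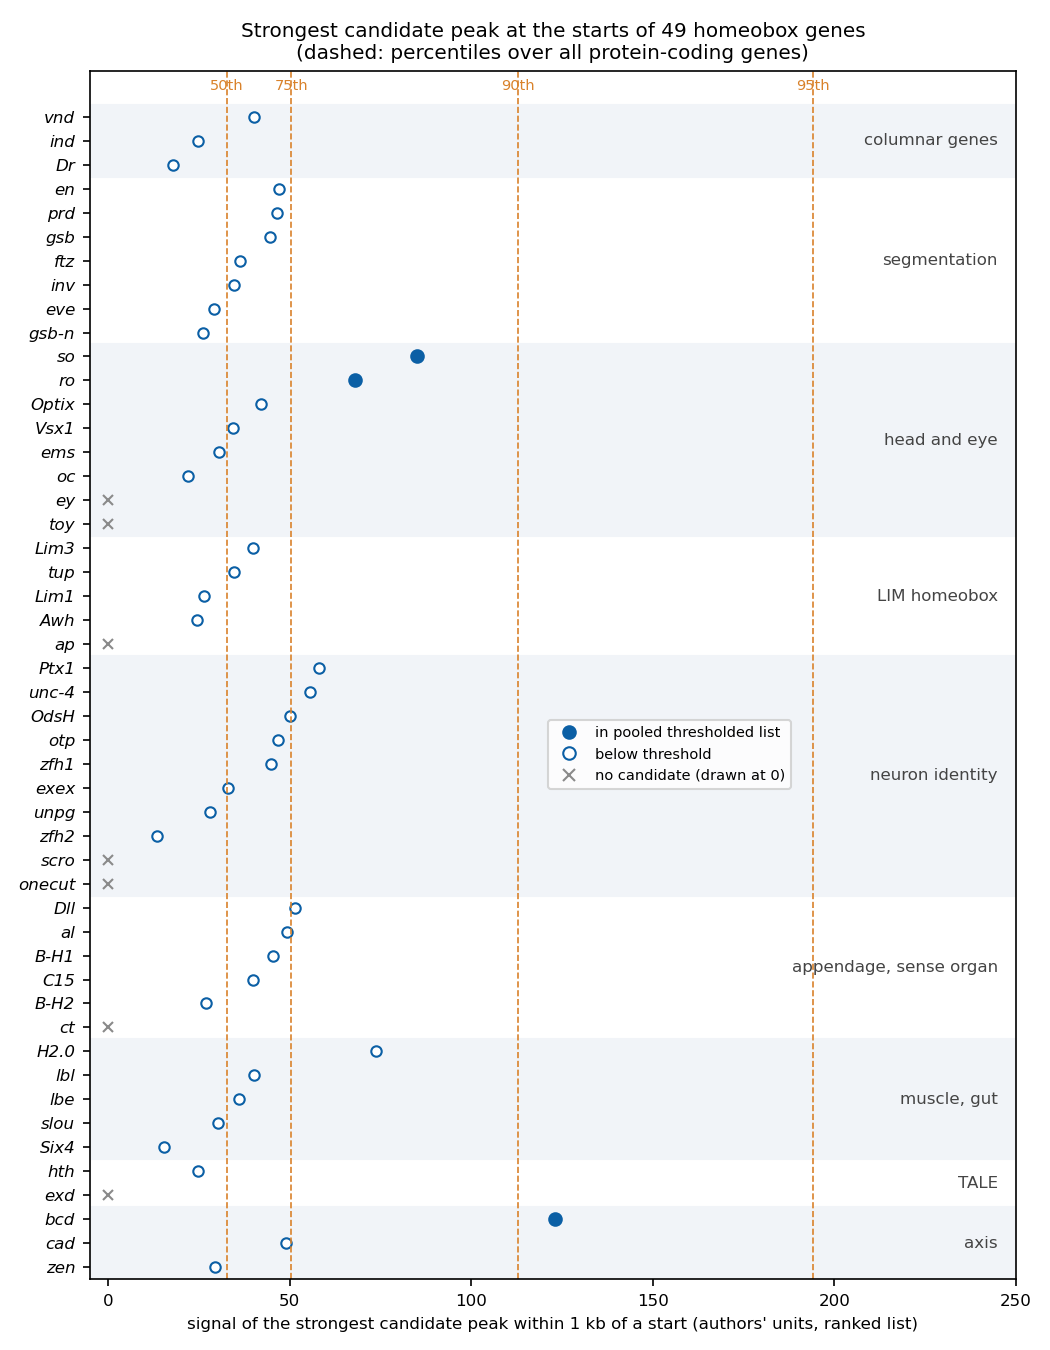
Signal of the strongest candidate peak within 1 kb of a start (x axis, authors' units) for each of the 49 genes (rows, grouped by role), with dashed lines at the 50th, 75th, 90th and 95th percentiles over all protein-coding genes (32.7, 50.5, 113 and 194). Filled points mark the 3 genes in the pooled list, open points candidates below its threshold, and crosses genes with no candidate. Nearly all points lie left of 60, with bcd alone beyond 113.

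Each replicate's own list also gave a share below the background at starts. The list of replicate 1 placed a summit within 1 kb of a start at 0 of the 49 genes (interval 0 to 7.25%), against 8.96% of all protein-coding genes, inside 6 (12.2%, against 5.03%) and as the nearest start at 8 (16.3%, against 8.94%). The 8 included scro and Optix, a Six-family eye gene whose summit 2868 bp from its start had a signal of 49.75. The list of replicate 2 gave 3 within 1 kb (6.12%, against 14.9%), inside 3 (6.12%, against 7.41%) and nearest 6 (12.2%, against 14.0%). The 3 genes with a summit near a start in the pooled list, so, bcd and ro, were the same 3 as in replicate 2. The conservative list gave 2 within 1 kb (4.08%, against 13.1%), 7 inside (14.3%, against 7.13%) and 10 nearest (20.4%, against 12.9%). Of these 9 shares, the interval excluded the background for the 0 of 49 in replicate 1 and included it for the other 8.

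A lower score threshold of 540 in the ranked list, chosen after seeing the data, kept so, bcd and ro as the 3 genes with a summit within 1 kb (6.12%, interval 1.28 to 16.9%, against 19.9%). Inside the gene the number was 12 (24.5%, interval 13.3 to 38.9%, against 13.1%), and by nearest start 17 (34.7%, interval 21.7 to 49.6%, against 23.3%). The first interval lay below its background, the second just above it, and the third included it. The genes that appeared at this level with no pooled summit were en, Lim1, zfh2, al, lbl, cad, B-H2 and Optix. The segment polarity gene en had an intergenic peak of 55.6 that lay 6545 bp from a start, B-H2 an intergenic peak of 70.1 that lay 15943 bp away, and al a coding exon peak of 60.35. The intronic peak of 65.3 in zfh2 lay on chromosome 4. None of the peaks at these 8 genes lay within 1 kb of a start.

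A list of 50 other homeobox genes, among them the Hox genes, gave shares close to those of the 49 in the pooled list. Inside the gene and by nearest start its shares were lower in 2 other lists and higher in replicate 2. In the pooled list, at 1 kb or less from a start 3 of 50 had a summit (6.0%), inside the gene 5 (10%) and as the nearest start 9 (18%). The 3 near a start were the heart gene tin (signal 193, 241 bp from its start), NK7.1 (187, 360 bp) and PHDP (184, 508 bp). Those 3 signals were higher than the 123 at bcd, the highest of the 49 at a start. Over both lists the count within 1 kb was 6 of 99 homeobox genes (6.06%), 11 inside (11.1%) and 18 as the nearest start (18.2%). In the conservative list the 49 genes had shares of 14.3% inside and 20.4% by nearest start, against 4.0% and 10% of the other 50. In replicate 1 they had 12.2% inside and 16.3% by nearest start, against 2.0% and 8.0% of the other 50. In replicate 2 the order was the other way, with 6.12% and 12.2% of the 49 against 8.0% and 18% of the other 50. These differences were not tested.

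**Figure D4:**
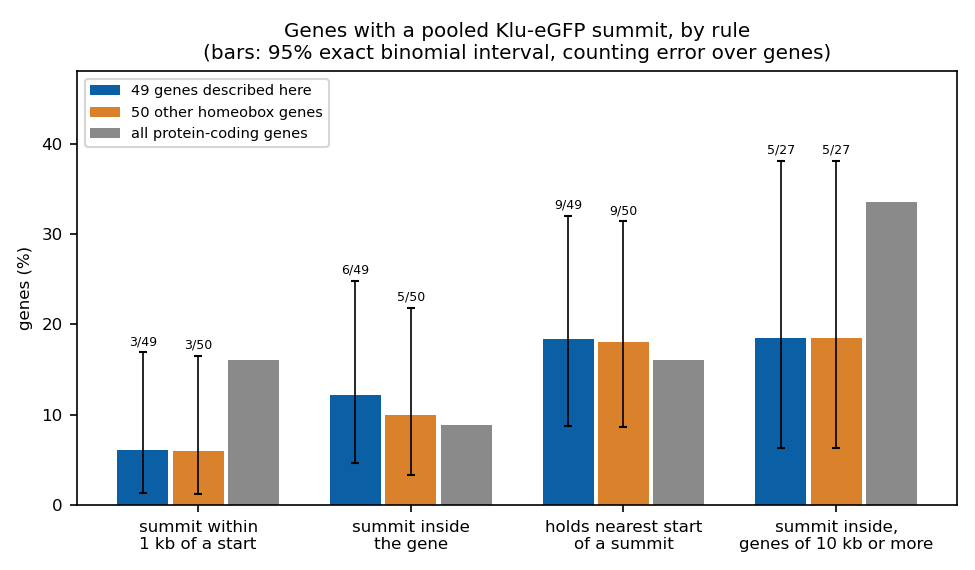
Share of genes (y axis, %) with a pooled summit by each rule (x axis), for the 49 genes described here (blue), 50 other homeobox genes (orange) and all protein-coding genes (grey, of 10 kb or more in the last group), with 95% exact binomial intervals and counts above the bars. Within 1 kb of a start the blue bar is at 6.12% and the grey at 16.1%, while by nearest start they are at 18.4% and 16.0%.

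The base composition under these summits was on average near that of the whole list. GC content in the 101 bases around the summit averaged 37.6 ± 2.5% (SE, 18 summits), against 36.0 ± 0.205% (SE, 3087 summits). It ran from 23.8% at the upstream bcd summit to 60.4% in the coding exons of otp and bcd. Those were the 2 summits of 18 at 60% GC or more (11.1%, against 3.4%), and coding exon summits over the whole list averaged 59.9% (46 summits). The longest run of A and T had a median of 9 bases at these summits and 10 over the whole list, and reached 26 bases in the hth intron and 21 at ems, as the sequences above show.

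Matches to 5 motifs were searched, and the counts depended on the window. An EGR-type match, spelled GTGGGCG or GTGGGTG on either strand, lay within 50 bp of 1 of the 18 summits (5.56%), against 4.5% of all pooled summits, and it was the CGCCCAC near ro and T48 that is shown in capitals above. GAGAG, bound by GAGA factor, was within 50 bp of 1 summit (5.56%, against 10.7%), at ems, and within 100 bp of 6 summits (33.3%, against 23.4%), so the share was below the whole list in the narrow window and above it in the wide one. The homeodomain core TAATTA was within 50 bp of 1 (5.56%, against 9.33%), at the upstream bcd summit, where it overlaps the capitals above. The Zelda motif CAGGTAG and the DRE motif TATCGATA were at 0, against 0.421% and 1.33%. No 2 of these matches overlapped each other. A match describes letters in a window and does not show that a factor was bound there.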

How the data were processed

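Each replicate is a ChIP-seq library of sonicated chromatin, with fragments of 200 to 800 bp per the labels. The deposited files are 8 peak lists, ranked or thresholded by IDR, the irreproducible discovery rate, on dm6 per the labels and the deposited text files. Each peak carries the authors' signal, a value on an unstated scale, and the authors' deposited score, up to 1000. The sources used here name no aligner or peak caller. Text files beside the lists were read for what each derives from.

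Summits (peak start plus offset) on 6 arms were linked to genes of Ensembl release 115 (BDGP 6.54). The reference genome (release 6) was long enough for every peak end. For 1 gene outside the set an older symbol was matched. Peaks overlapped when they shared 1 bp. A summit in a promoter was classed as such first, then by exon type, then as intronic or intergenic. Python 3.11.15, numpy 2.4.6, pandas 2.3.3 and scipy 1.17.1 were used, and gene assignment was checked on simulated summits. No test over the gene list was run. The genes, lists and motifs were chosen with earlier results of these data known. All 49 genes were named, and each with a pooled summit was given its values, any other gene its strongest candidate within 1 kb. Genes outside the set were named where their start was nearer, or as other homeobox genes with a summit within 1 kb. The backgrounds of long genes and of genes with 1 start, and the score of 540, were chosen after seeing the data.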

Additional observations from a re-analysis of the deposited data

How the results depend on the processing

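The counts rest on few peaks, and leaving out a replicate moved several of them. With 1 replicate's own list in place of the pooled one, genes that had a summit at most 1 kb from a start numbered 0 to 3, and those holding one inside 3 to 6. The median signal ran from 49.8 to 60.2, on the scale of single replicates. The share in promoters ran from 0% to 21.4%, and mean GC content from 37.5% to 43.4%. In each pair the list of replicate 1 gave the 0 within 1 kb, the 6 inside, the 49.8, the 0% and the 43.4%. Pooled peaks above the median signal gave 1 gene within 1 kb, 3 inside, 4 by nearest start and 5 summits by nearest start, with a median signal of 142 and 83.3% of summits in both replicates' lists. Fewer peaks enter under that setting by construction. A score of 540 or more, added after seeing the data, gave 12 genes inside and 17 by nearest start. Support in the ranked lists of both replicates was 100% in place of 27.8%. A window of 100 bp either side gave EGR-type matches at 2 summits in place of 1, and GAGAG at 6 in place of 1. The shares over all pooled summits rose too, from 4.5% to 8.55% for EGR-type matches and from 10.7% to 23.4% for GAGAG. In the wide window the 18 summits had 11.1% and 33.3%. The cause of these differences was not tested. Other values were treated as kept when a count stayed within 1.5 times or a share stayed within its interval, which is wide (1.38 to 34.7% for promoters). Within those limits the promoter share of 11.1% was 5.56% under the conservative list and 16.7% at 1 kb, and the 3 genes within 1 kb were 2 under the conservative list, 2 at 500 bp and 4 at 2 kb. No paired analysis was possible because all samples form 1 group. Depth is unknown, so a gene without a peak had none detectable at this depth.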
